A study of Homo sapiens with 17 samples.

Results

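TFF1 (trefoil factor 1, ENSG00000160182.3) is a single gene, 1 of 58870 entries in the count table and 1 of 15365 that had enough counts to be tested. It was followed through 17 RNA libraries of MDA-MB-231 cells at 0, 1, 3, 6, 12 and 24 h with TRAIL. The gene was chosen by its measured level, which was low at 12 h and 24 h relative to 0 h, so its values at those times and at 0 h are a description and carry no test. Genes called lower than at 0 h at an adjusted p below 0.05, without overlap between the groups, were ordered by log2 fold change. Only genes whose log2 CPM (counts per 1e6 counts of the scaled library) averaged at least 2 were kept. At 12 h TFF1 was the lowest of 888 such genes with -2.79, and the next was C3, the central complement component, with -1.91. At 24 h TFF1 was the second lowest of 2178 genes with -3.05, after AC011603.2 with -5.67 and before AP003392.3 with -2.66. TFF1 was chosen by its fall at these times, so its place in this order restates the choice. The same holds for its passing of the threshold used to form the order. Without the limits on level, overlap and adjusted p, TFF1 was number 18 from the bottom at 12 h and number 20 at 24 h among the 15365 genes.

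MDA-MB-231 is an established human line of triple-negative breast cancer, which its labels class as mesenchymal basal B. TRAIL, the TNF-related ligand that engages death receptors and can trigger apoptosis, was given at 45 nM, which the series describes as below the optimal dose and meant for measuring living cells. There were 3 libraries each at 0, 3, 6, 12 and 24 h and 2 at 1 h. All 17 libraries, those of 0 h included, carry the same treatment label, and no untreated library of a later time was included, so time with TRAIL and time in culture cannot be told apart. The sources used here do not say whether replicates came from separate cultures, and p-values measure the spread between these libraries.

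Trefoil factors are small secreted peptides of mucous epithelia, built from a cysteine-rich fold that disulfide bonds hold together, and they are known for protecting and restoring mucosal surfaces. TFF1 is made mainly by surface mucous cells of the stomach, TFF2 by deeper gastric gland cells and TFF3 by intestinal goblet cells. In the breast TFF1, also known as pS2, is a classical target of the oestrogen receptor and is best known from receptor-positive luminal tumours, a class to which MDA-MB-231 does not belong.

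The trefoil genes lie side by side on the minus strand of chromosome 21 (GENCODE 29, GRCh38). TFF1 spans chr21:42362282-42366594, with 3 exons and a transcript of 551 bases. TFF2 spans chr21:42346357-42351128 and has a transcript of 737 bases, and TFF3 spans chr21:42311667-42315651 with a longest transcript of 1109 bases. Similar gene copies can share reads, and the transcripts were therefore compared with each other. The longest stretch of identical bases common to the TFF1 and TFF2 transcripts had 15 bases, that of TFF1 and TFF3 had 10, and that of TFF2 and TFF3 had 11. The deposited counts of TFF1, TFF2 and TFF3 were whole numbers in all 17 libraries, whereas 10.8% of the values in the whole table were not.

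The smallest library total was 13731520 counts (replicate 2 of 3 h) and the largest 19234924 (replicate 2 of 12 h). All 7 markers of a mesenchymal basal B line were tested, with a summed level of 6605 to 7560 CPM per library. Of 10 luminal breast markers 7 were tested, with a sum of 1751 to 2608 CPM and group means of 2320 at 0 h, 1920 at 6 h and 1834 at 24 h. KRT8, KRT18 and KRT19, keratins of simple epithelia, were called lower at 24 h than at 0 h, where 35.1% of all genes tested were called, as was VIM of the mesenchymal list, whose members ZEB1, AXL and MSN were called higher. Their relation to TFF1 was not tested. The defining luminal genes ESR1, the oestrogen receptor, PGR, the progesterone receptor, and FOXA1 had at most 2 counts in any library. Of 4 immune cell markers only CD68 was tested, PTPRC had at most 5 counts and CD3E had 0 in every library. CD68 was abundant, with 773 to 1678 counts per library. Against 0 h it was called lower at 3 h (log2 fold change -0.43, edgeR adjusted p = 7.35e-05), where 17.7% of genes were called. At 24 h it was called higher (0.23, edgeR adjusted p = 0.0058). KRT8, KRT18, VIM and CD68 have counts that are not whole in all 17 libraries, ZEB1 in 11 and MSN in 6.

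TFF1 was present in all libraries and was several fold less abundant from 12 h on. The 0 h libraries held 235, 223 and 225 TFF1 counts, those of 1 h held 233 and 243, and those of 3 h held 169, 195 and 156. Counts of TFF1 were 130, 122 and 131 by 6 h, then only 33, 36 and 38 by 12 h and 34, 24 and 24 by 24 h. Every 6 h library lay below every earlier one, and every 12 h and 24 h library lay below every 6 h library. In CPM, which takes the scaled library total into account, the 0 h mean of TFF1 was 14.2 ± 0.394 (SD, n = 3), the 1 h mean 15.5 ± 1.03 (n = 2) and the 3 h mean 12.95 ± 2.01 (n = 3). By 6 h TFF1 averaged 7.79 ± 0.629 CPM, by 12 h it averaged 2.06 ± 0.232, and by 24 h the average was 1.69 ± 0.264 (n = 3 in all of these groups). In order of level, the times ran from 1 h through 0, 3, 6 and 12 h to 24 h. The neighbours 0 h and 3 h overlapped, with 15.1 CPM in replicate 2 at 3 h, as did 12 h and 24 h. In bulk RNA, fewer cells with the transcript and less transcript per cell cannot be told apart.

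**Figure D1:**
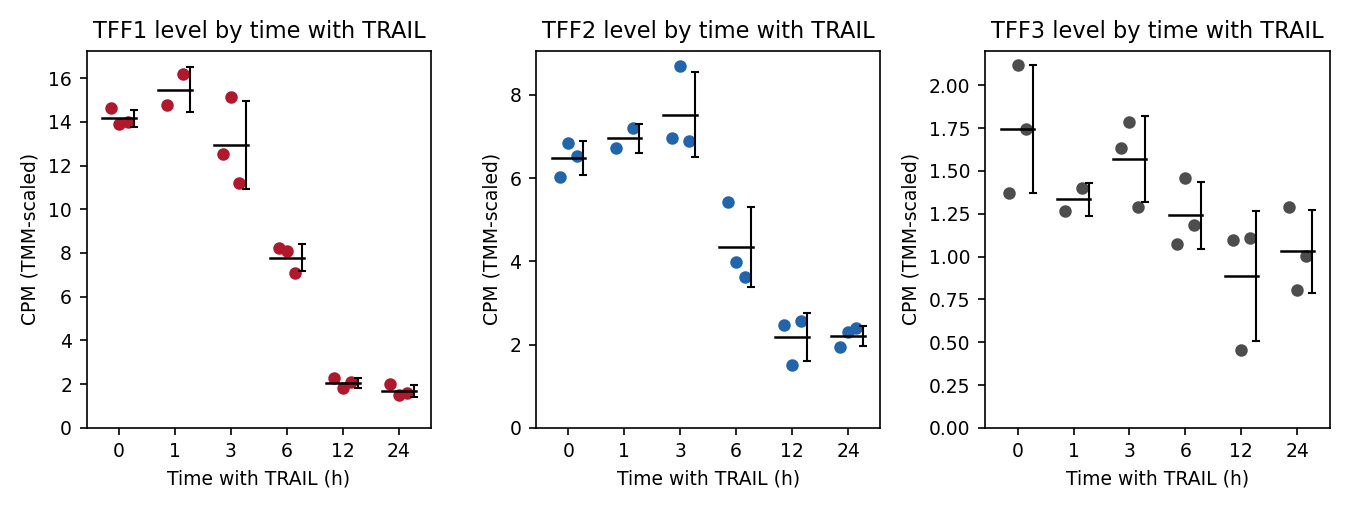
Level of TFF1, TFF2 and TFF3 (CPM, linear axis) in each library at 0, 1, 3, 6, 12 and 24 h, with times evenly spaced; each panel has its own axis, points are libraries, horizontal lines are group means and error bars are the SD. TFF1 goes from a mean of 14.2 CPM at 0 h to 1.69 CPM at 24 h, and TFF2 from 6.47 to 2.21 CPM.

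The comparisons that the choice of TFF1 did not use were those among 1, 3 and 6 h. TFF1 fell between 3 h and 6 h, by 0.73 on the log2 scale (SE 0.118, adjusted p = 0.000128, edgeR quasi-likelihood test), to 60.2% of the 3 h level. In that comparison 43.2% of all genes tested were called, 22.9% as higher and 20.3% as lower. TFF1 was also lower at 6 h than at 1 h, by a log2 fold change of -0.99 (SE 0.126, edgeR adjusted p = 2.02e-05), which left 50.4% of the 1 h level, beside 33.8% of genes called. Between 1 h and 3 h the log2 fold change was -0.26 (SE 0.123, edgeR adjusted p = 0.245), the groups overlapped, and 5.73% of genes were called. Two-sided exact permutation tests of log2 CPM gave p = 0.1 for 6 h against 1 h and for 6 h against 3 h, and p = 0.3 for 3 h against 1 h, where the smallest p that these group sizes allow is 0.1.

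Against 0 h, the fitted log2 fold change of TFF1 was 0.13 after 1 h, -0.13 after 3 h and -0.87 after 6 h, values that share the 0 h libraries and are given without a test. It was -2.79 (SE 0.139) at 12 h and -3.05 (SE 0.146) at 24 h. Thus the 12 h level was 14.5% and the 24 h level 11.9% of that at 0 h, or 6.92-fold and 8.31-fold lower. From 12 h to 24 h the value was -0.26 (SE 0.193). Divided by the time elapsed, the log2 change was -0.13 per hour from 1 h to 3 h, -0.24 per hour from 3 h to 6 h, -0.32 per hour from 6 h to 12 h and -0.024 per hour from 12 h to 24 h. Of these stretches that from 6 h to 12 h was the steepest, and its rate equals a loss of 1 log2 unit in 3.12 h. The 12 h level was part of the choice of TFF1, so this order of rates is a description only.

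The dependence of counts on transcript length differed between times, and TFF1 is short. The slope of counts on length was between -0.14 (replicate 2 of 3 h) and 0.13 (replicate 2 of 24 h) in log2 units per doubling. Its group mean was -0.096 for the 3 h libraries, 0.066 for those of 6 h and 0.093 for those of 24 h. The mean mitochondrial share of counts was 8.59% in the 3 h libraries, 4.49% in those of 6 h and 3.90% in those of 24 h. The 576 other tested genes with transcripts under 700 bases had -0.55 as their median log2 fold change for 6 h against 3 h, where TFF1 had -0.73. At 24 h against 0 h the median of these short genes was -0.35, where TFF1 had -3.05. At 12 h against 0 h it was -0.13, where TFF1 had -2.79. The gene was chosen by its low level at 12 h and 24 h, so its distances from these medians at those times are partly set by the choice. With trends in length and GC content taken out of every library, TFF1 was at -0.30 for 6 h against 3 h (edgeR adjusted p = 0.0141) and at -0.66 for 6 h against 1 h (adjusted p = 3.83e-05). Its value for 3 h against 1 h became -0.36 and passed the test (edgeR adjusted p = 0.0179). The differences of TFF1 from 0 h were then -0.64 at 6 h, -2.62 at 12 h and -2.73 at 24 h. After this step the hourly change was -0.18 from 1 h to 3 h, -0.10 from 3 h to 6 h and -0.33 from 6 h to 12 h, so the order of the first pair of these stretches turned.

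**Figure D2:**
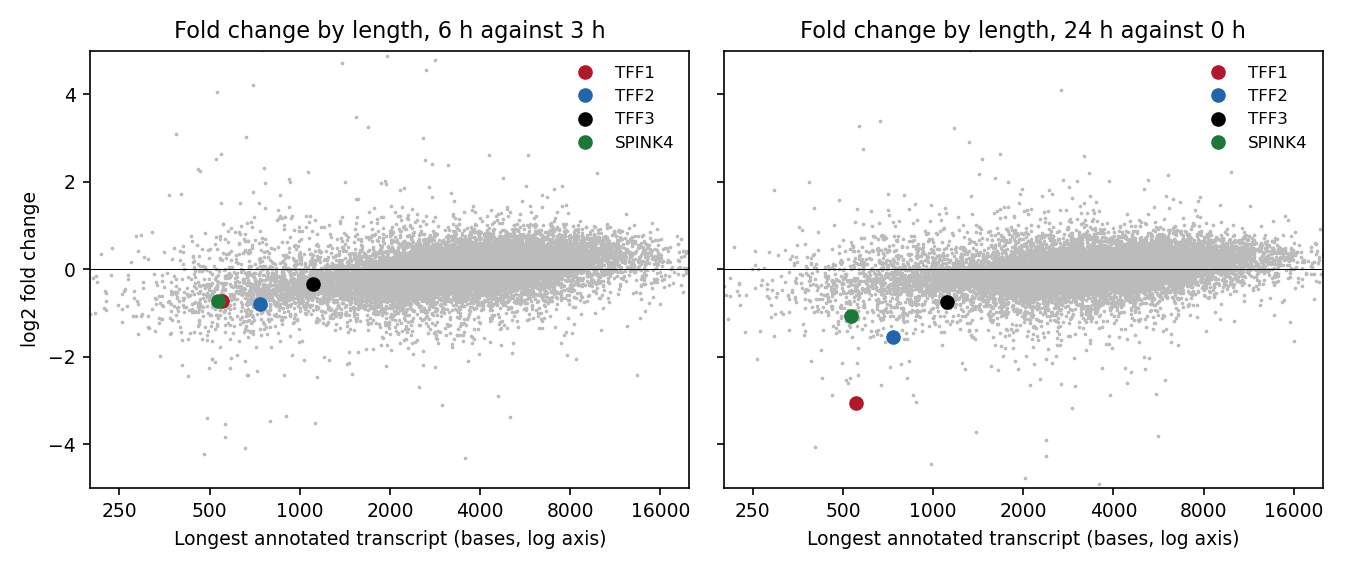
Log2 fold change of each tested gene against its transcript length (log axis) at 6 h against 3 h and at 24 h against 0 h, with TFF1, TFF2, TFF3 and SPINK4 (a goblet cell gene described further on) marked; 113 and 104 genes beyond the axes or without a length are not drawn. At 6 h against 3 h TFF1 (-0.73) sits near the median of other short transcripts (-0.55). At 24 h against 0 h, a comparison used to choose the gene, TFF1 (-3.05) sits far below their median of -0.35.

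TFF2, whose gene starts 15.5 kb from that of TFF1, had 97, 110 and 105 counts in the 0 h libraries, 106 and 108 in those of 1 h, and 94, 112 and 96 in those of 3 h. Counts of TFF2 were 86, 60 and 67 by 6 h, then 36, 30 and 46 by 12 h and 33, 37 and 36 by 24 h. All 6 libraries of 12 h and 24 h lay below all others. TFF2 fell to 33.6% of the 0 h level at 12 h (log2 fold change -1.59, SE 0.187, edgeR adjusted p = 1.78e-05), where 12.4% of genes were called, 5.96% as higher and 6.48% as lower. At 24 h it was at 34.1% (log2 fold change -1.55, SE 0.189, edgeR adjusted p = 1.09e-05), where 35.1% of genes were called, 18% as higher and 17.1% as lower. Both calls held under all 19 alternatives. The log2 fold change of TFF2 from 12 h to 24 h was 0.037 (edgeR adjusted p = 0.933), and at 1 h and 3 h TFF2 was at 0.10 and 0.21 against 0 h (edgeR adjusted p of 0.987 and 0.389).

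At 6 h TFF2 was lower than at 3 h, with a log2 fold change of -0.79 (edgeR adjusted p = 0.00104) and of -0.41 (adjusted p = 0.0366) with length and GC trends removed. Against 1 h TFF2 had -0.68 at 6 h (edgeR adjusted p = 0.00909), and this call was lost with the trends removed (adjusted p = 0.0819), without replicate 2 at 1 h (adjusted p = 0.101) and without replicate 3 at 6 h (adjusted p = 0.0526). Against 0 h TFF2 had -0.58 (edgeR adjusted p = 0.0147), where 30.1% of genes were called, 16.9% as higher and 13.2% as lower. That call was lost with the trends removed (adjusted p = 0.0625), with the close replicates 2 and 3 averaged at 6 h and 24 h (adjusted p = 0.0775), and without replicate 2 at 0 h (adjusted p = 0.0503), replicate 2 at 6 h (adjusted p = 0.0627) or replicate 3 at 6 h (adjusted p = 0.0948).

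TFF3 was the least abundant member, with 22, 34 and 28 counts in the 0 h libraries, 20 and 21 in those of 1 h, and 22, 23 and 18 in those of 3 h. Counts of TFF3 were 17, 22 and 22 by 6 h, then 16, 9 and 20 by 12 h and 22, 13 and 15 by 24 h. In CPM the 12 h and 24 h groups of TFF3 did not overlap with its 0 h group, and the 1 h, 3 h and 6 h groups did. TFF3 had a log2 fold change of -1.001 at 12 h against 0 h (SE 0.303, edgeR adjusted p = 0.0348). This call was lost in a fit of those groups alone (adjusted p = 0.0622), without replicate 2 at 0 h (adjusted p = 0.143), without replicate 3 at 0 h (adjusted p = 0.0648) and without replicate 2 at 12 h (adjusted p = 0.203). At 24 h TFF3 was at -0.75 (edgeR adjusted p = 0.0552), which passed the threshold under 5 of 19 alternatives.

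Per kilobase of the longest annotated transcript, the level at 0 h was 25.7 ± 0.714 CPM for TFF1, 8.78 ± 0.559 for TFF2 and 1.57 ± 0.338 for TFF3 (SD, n = 3). TFF3 also has annotated coding transcripts of 407 and 452 bases, with which its level per kilobase would be higher. At 24 h these levels per kilobase were 3.07 ± 0.479, 3.00 ± 0.334 and 0.930 ± 0.219, so that TFF1 and TFF2 no longer differed by more than their spread. The ratio of TFF1 to TFF2 counts within a library averaged 2.20 ± 0.203 in the 0 h group, 1.72 ± 0.0881 in the 3 h group, 0.981 ± 0.195 in the 12 h group and 0.782 ± 0.215 in the 24 h group. Over the 17 libraries the correlation of log2 CPM with TFF1 was r = 0.96 for TFF2 and r = 0.72 for TFF3, as a description of libraries that share their times. With length and GC trends removed, the value for TFF2 was 0.95.

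**Figure D3:**
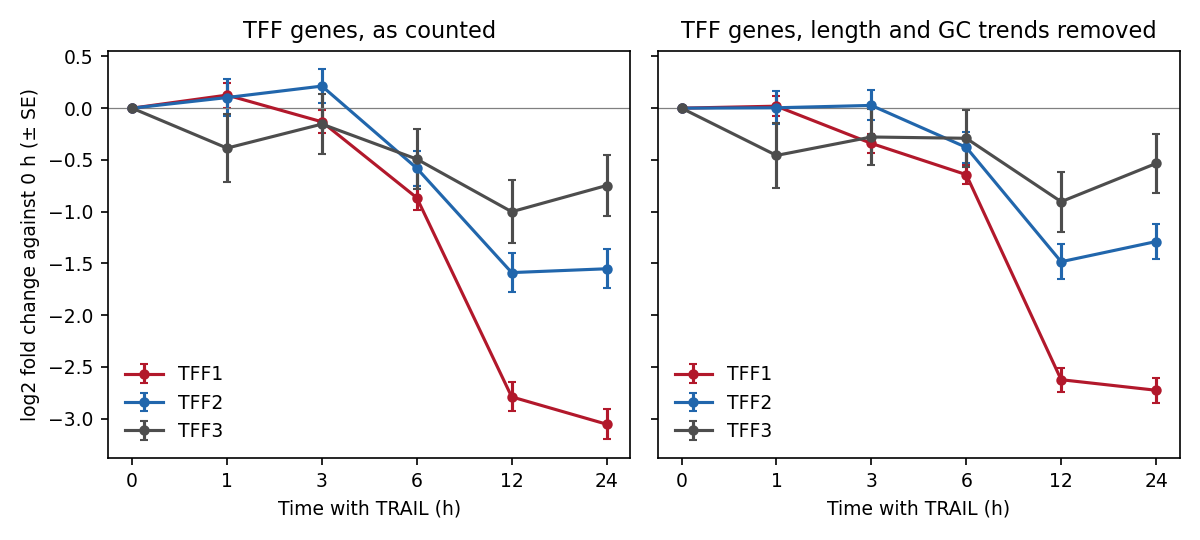
Fitted log2 fold change of TFF1, TFF2 and TFF3 against 0 h (points, bars are the SE) by time in h, evenly spaced, as counted and with length and GC content trends removed. TFF1 at 24 h is -3.05 as counted and -2.73 with the trends removed, and in both panels its longest step down lies between 6 h and 12 h.

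Genes around TFF1 on chromosome 21 were called in both directions at 24 h against 0 h, and only as lower at 12 h, mostly the other trefoil genes. Of 17 listed neighbours, 12 were tested, and at 12 h against 0 h 3 were called lower and 0 higher, beside 6.48% and 5.96% of all genes. With single libraries left out the number called ranged from 1 to 3. These were TFF2, TFF3 and PKNOX1, a homeobox factor (log2 fold change -0.28, edgeR adjusted p = 0.0171, lost without replicate 1 at 0 h or replicate 2 at 12 h). At 24 h 3 were called lower and 2 higher, beside 17.1% and 18% of all genes. These 5 of 12 are near the 35.1% of all genes called. TFF2, PKNOX1 (-0.40, adjusted p = 0.000601) and NDUFV3, a subunit of mitochondrial complex I (-0.39, adjusted p = 0.00176), were lower. RIPK4, a kinase of epidermal differentiation (0.44, adjusted p = 0.00357), and C2CD2 were higher, and RIPK4 has counts that are not whole in all 17 libraries. The median of the tested neighbours, TFF2 and TFF3 included, was -0.11 at 12 h and -0.16 at 24 h, where that of all genes was -0.0032 and -0.0017. The nearest gene on the other side of TFF1 was TMPRSS3, a serine protease whose annotated start lies 30.2 kb from that of TFF1. TMPRSS3 had at most 3 counts, and UBASH3A had at most 1. UMODL1, RSPH1 and CBS were not tested either, and UMODL1 and CBS had 0 counts in every library. Changes near TFF1 could thus be read for TFF2 and TFF3 and, farther out, from SLC37A1 and ABCG1. The annotated starts of SLC37A1 and ABCG1 lie 129 kb and 167 kb from that of TFF1. Neither was called at 24 h (log2 fold change of -0.21 and -0.23, edgeR adjusted p of 0.12 and 0.458). At 6 h ABCG1, a lipid transporter, had been called lower than at 1 h with -0.92 (edgeR adjusted p = 0.0132, lost without replicate 2 at 1 h or replicate 3 at 6 h). Against 0 h it was at -0.76 (edgeR adjusted p = 0.0236), a call lost with DESeq2 and without replicate 1 or 3 at 0 h or replicate 1 or 3 at 6 h.

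**Figure D4:**
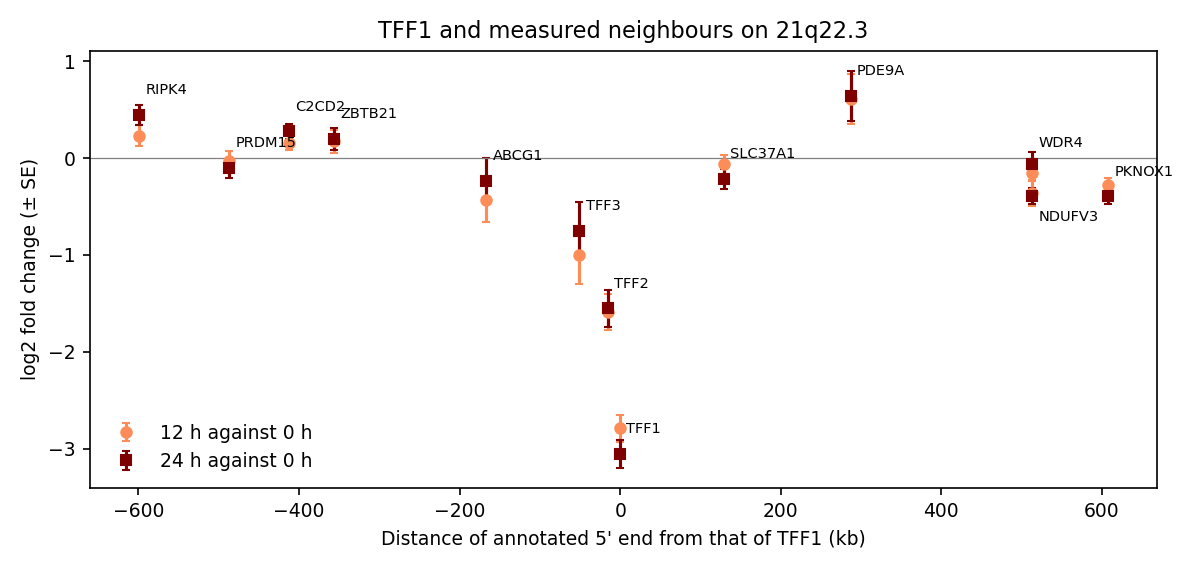
Log2 fold change (bars are the SE) at 12 h and 24 h against 0 h of TFF1 and the tested genes around it, by the distance of their annotated start from that of TFF1 (kb). At 24 h TFF1 (-3.05) and TFF2 (-1.55) stand below their neighbours, which lie between -0.40 (PKNOX1) and 0.64 (PDE9A) apart from TFF3 (-0.75).

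Genes of mucous cells were sparse. Of 8 markers of gastric pit or goblet cells, 4 were tested, and the summed level of the list averaged 35.9 CPM in the 0 h group, 34.8 after 1 h, 30.9 after 3 h, 21.02 after 6 h, 21.8 after 12 h and 21.6 after 24 h, over a range of 18.3 to 38.7 per library. The defining gastric genes MUC5AC, GKN1 and GKN2 had at most 7 counts. SPINK4, a goblet cell protease inhibitor with a transcript of 533 bases, averaged 15 ± 1.40 CPM in the 0 h group, 9.39 ± 1.19 after 6 h and 7.17 ± 0.988 after 24 h (SD, n = 3). SPINK4 fell by 0.69 on the log2 scale at 12 h (edgeR adjusted p = 0.00619) and by 1.06 at 24 h (edgeR adjusted p = 8.41e-05). Both calls held under all 19 alternatives, with smaller values once length and GC trends were removed. These were -0.57 at 12 h (edgeR adjusted p = 0.000803) and -0.76 at 24 h (adjusted p = 2.81e-05). AGR2, a protein disulfide isomerase of mucin-secreting cells, averaged 12.6 ± 1.66 CPM in the 0 h group, 6.40 ± 0.330 after 3 h, 5.65 ± 0.679 after 6 h and 9.83 ± 0.896 after 24 h. It fell by 0.97 at 3 h (edgeR adjusted p = 2.7e-05) and by 1.16 at 6 h (adjusted p = 2.61e-06) on the log2 scale. The lowest group mean of AGR2 was thus that of 6 h, and the lowest of TFF1 that of 24 h. TFF2, also a tested member of this list and part of its sum, averaged 6.47 CPM in the 0 h group and 2.21 after 24 h. VSIG1, an adhesion protein of gastric epithelium and the remaining tested member, went the other way. It averaged 0.9545 ± 0.130 CPM in the 0 h group and 1.60 ± 0.454 after 24 h (SD, n = 3), and was called higher at 24 h with 0.74 (edgeR adjusted p = 0.0407), a call that held under 10 of 19 alternatives and was lost without any 0 h replicate or without replicate 2 or 3 at 24 h. At 24 h AGR2 was at -0.35 (edgeR adjusted p = 0.0239), a call lost under 5 of 19 alternatives, among them leaving out replicate 3 at 0 h or replicate 2 or 3 at 24 h. The part of such cells in the TFF1 values was not tested.

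Of 9 binding partners and receptors linked to trefoil factors, MUC1, CXCR4 and FCGBP were tested, and GKN1, GKN2, MUC2, MUC5AC, MUC6 and LINGO2 were not. MUC1, a membrane mucin, fell by 0.56 at 12 h (edgeR adjusted p = 0.00628) and by 0.80 at 24 h (adjusted p = 0.000156) on the log2 scale. With length and GC trends removed, MUC1 was at -0.23 at 12 h (adjusted p = 0.152) and the 24 h call held. MUC1 had 38.6 ± 2.78 CPM at 0 h and 22.1 ± 2.20 at 24 h (SD, n = 3), without overlap between those groups. The other tested partners did not follow MUC1 at 24 h, where the median of the list was 0.0995. CXCR4, a chemokine receptor, was at 0.0995 (edgeR adjusted p = 0.313) and FCGBP, a mucus protein, at 0.29 (adjusted p = 0.281). FCGBP averaged 2.74 ± 0.347 CPM in the 0 h group, 1.57 ± 0.431 after 3 h, 1.62 ± 0.439 after 6 h and 3.35 ± 0.498 after 24 h (SD, n = 3). FCGBP was called lower at 3 h (-0.80, edgeR adjusted p = 0.0232, lost without replicate 2 or 3 at 0 h or replicate 3 at 3 h) and at 6 h (-0.74, adjusted p = 0.0176, lost without replicate 3 at 0 h or replicate 1 at 6 h).

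TFF1 is read in breast tissue as a marker of oestrogen signalling, and 30 other oestrogen-response genes were set beside it. The 12 h comparison called 1 of the 21 tested higher and 4 lower, with a median of -0.071, beside 12.4% of all genes called. The 24 h comparison called 4 higher and 3 lower, with a median of -0.00097, beside 35.1% of all genes. The 6 h comparison with 0 h called 5 higher and 5 lower, beside 30.1%, and that with 3 h called 8 higher and 4 lower, beside 43.2%. The 7 calls of 21 at 24 h are thus near the share over all genes. FHL2, a LIM-domain cofactor, fell by 0.38 at 12 h (edgeR adjusted p = 0.000214) and by 0.47 at 24 h (adjusted p = 7.61e-06) on the log2 scale. CA12, a carbonic anhydrase, was lower at 12 h with -0.41 (edgeR adjusted p = 0.00129). ADCY9, an adenylyl cyclase, rose by 0.45 at 24 h (edgeR adjusted p = 0.00165). The largest called change of the list at 12 h and 24 h was that of AGR2 at 12 h, with -0.55 (edgeR adjusted p = 0.00503), where TFF1 stood at -2.79.

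The luminal transcription factor list had 8 of 14 members tested. Among the members that were not tested, ESR1, ESR2, PGR, FOXA1 and GRHL2 had at most 8 counts in any library. At 24 h against 0 h 2 were called higher and 1 lower, with a median of -0.0041, and these 3 of 8 are near the 35.1% of all genes called. SPDEF, an ETS factor of secretory epithelia, rose by 0.46 at 24 h (edgeR adjusted p = 0.00203) after a log2 fold change of -0.45 at 6 h (adjusted p = 0.00426). TFAP2C, an AP-2 factor of the mammary lineage, was lower at 24 h with -0.37 (edgeR adjusted p = 0.0089). ELF3, an epithelial ETS factor, was at -1.16 at 3 h (edgeR adjusted p = 0.00196) and at 0.64 at 24 h (adjusted p = 0.0118, lost without replicate 1 at 0 h or replicate 2 at 24 h).

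Among 18 factors that have been reported to act on the TFF1 promoter, 16 were tested, and ESR1 and FOXA1 were not. At 3 h against 0 h 4 were called higher and 1 lower, beside 17.7% of all genes called, 9.04% as higher and 8.71% as lower. FOS, an AP-1 subunit, averaged 44.0 ± 7.55 CPM in the 0 h group, 12.2 ± 1.16 after 3 h, 43.1 ± 7.44 after 6 h and 14.8 ± 1.10 after 12 h (SD, n = 3), and fell at 3 h by 1.85 on the log2 scale (edgeR adjusted p = 6.03e-08). JUNB, its partner in AP-1, had 29.4 ± 0.139 CPM at 0 h and 99.2 ± 8.42 at 3 h, and rose by 1.75 (edgeR adjusted p = 3.46e-10). At 6 h NFKB1, a subunit of NF-kappaB, rose by 1.04 (edgeR adjusted p = 3.74e-07) and STAT3 by 0.55 (adjusted p = 7.8e-06). At 12 h 2 were called higher and 4 lower, with a median of -0.021, beside 5.96% of all genes called higher and 6.48% lower. With single libraries left out the number called at 12 h ranged from 2 to 6. FOS was at -1.57 at 12 h (edgeR adjusted p = 8.96e-07) and JUNB at 0.48 (adjusted p = 0.00469). At 24 h 4 were called higher and 5 lower, with a median of 0.037, beside 18% of all genes called higher and 17.1% lower. FOS was then at -1.05 (edgeR adjusted p = 2.08e-05), NFKB1 at 0.61 (adjusted p = 0.000138), HIF1A, the hypoxia-inducible factor, at 0.64 (adjusted p = 0.00948) and CEBPB at -0.54 (adjusted p = 0.00392). HIF1A and CEBPB have counts that are not whole in all 17 libraries. The part of these factors in the level of TFF1 was not tested.

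The genes whose log2 CPM followed TFF1 most closely over the 17 libraries, among the 11368 that averaged at least 2 on that scale, were named by rank. CTSC, a lysosomal cysteine protease, had the highest correlation with r = 0.9735, followed by PORCN, an acyltransferase of Wnt proteins, with 0.972 and ASF1B, a histone chaperone, with 0.970. BMP1, a procollagen protease, had an r of 0.968, MELTF, a membrane transferrin, 0.966, and ZWINT, a kinetochore protein, 0.966. HLA-DPB1, an antigen-presenting molecule, had an r of 0.965 and DUT, a dUTP hydrolase with counts that are not whole in all 17 libraries, 0.9635. These values describe libraries that share their times and carry no test. Over the 6 time means these 8 genes had r of 0.977 (ZWINT) to 0.997 (HLA-DPB1), and 92 genes reached r of at least 0.9 over the libraries. TFF2 stood at number 12. Among these 8 genes the shape was shared but not the size, with log2 fold changes at 24 h against 0 h of -0.47 (CTSC) to -0.87 (PORCN), against -3.05 for TFF1. Genes below the level limit were not ranked, and larger falls than that of TFF1 occurred there. AC010323.1, with an average log2 CPM of 0.11, was at -7.88 for 12 h against 0 h. LCN2, another gene below the limit, was named because it stood next to TFF1 in the order of all tested genes at 24 h. Its similar fall at 24 h was therefore set by that choice. LCN2 averaged 3.28 ± 0.482 CPM in the 0 h group and 0.382 ± 0.291 after 24 h (SD, n = 3). Its fitted log2 fold change was -3.04 between these groups and -2.37 for 12 h against 0 h, as a description without a test. After removal of the length and GC trends the r of these 8 genes was 0.905 to 0.973, and 1 of them stayed among the 8 highest.

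**Figure D5:**
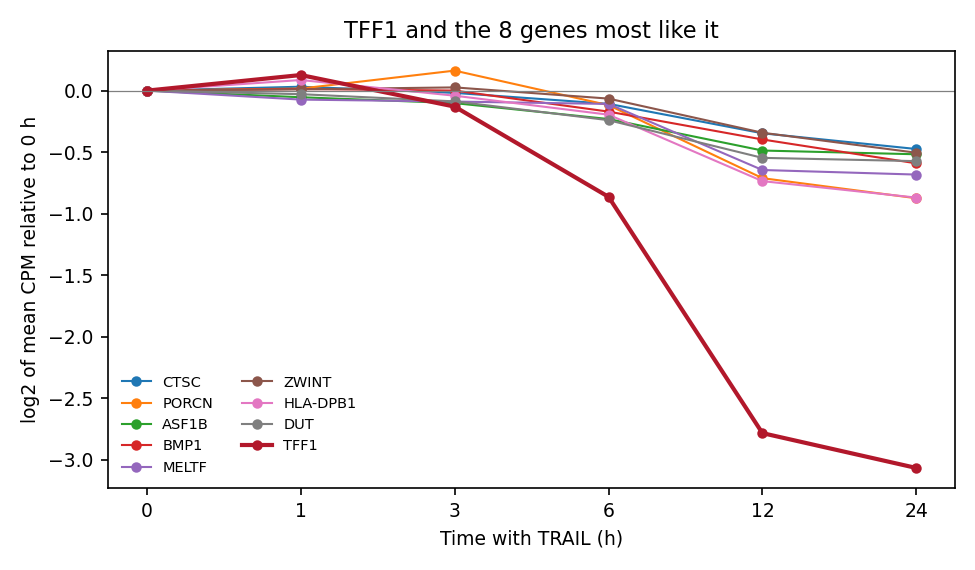
Log2 of the group mean CPM relative to 0 h for TFF1 and the 8 genes most correlated with it over 17 libraries, by time in h, evenly spaced. TFF1 drops far more than the 8 genes, whose fitted values at 24 h lie between -0.47 (CTSC) and -0.87 (PORCN) against -3.05 for TFF1.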

How the data were processed

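RNA of 17 MDA-MB-231 libraries was measured by RNA sequencing at 6 times with 45 nM TRAIL. The authors deposited 1 table of gene-level expected counts, estimated fragments per gene that per the file name came from RSEM. Cutadapt 1.18, STAR 2.7.0f and the build hg38 are named per the submitters' processing notes, and the RSEM version, annotation release and strand setting were not given in the sources used here. Without the strand setting, reads of overlapping and antisense genes cannot be told apart. Of 58870 entries, 58597 matched GENCODE 29 by Ensembl identifier without version, and all 103 listed genes were matched. 0 columns lacked a sample.

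Counts were rounded, low genes were removed with edgeR's filterByExpr (edgeR 4.0.16 in R 4.3.3), and TMM scaling was applied. All 17 libraries entered 1 robust quasi-likelihood fit with a coefficient for each time. Benjamini-Hochberg adjustment covered the 15365 genes tested, and a gene is called below 0.05. The biological coefficient of variation was 7.06%. Likeness to TFF1 is Pearson's r of log2 CPM (prior count 2). The length and GC trends were smooth curves fitted to each library (mgcv 1.9.3) and entered as offsets. The model was also run on simulated counts with 1 shared dispersion and known changes at 6 h. The simulated counts held no length or GC trends, so that run cannot speak to the effect of such trends.

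TFF1, the lists, the alternatives and the rule for named genes were chosen with earlier results of these data known. The rule named TFF1, the trefoil genes, up to 4 called members per list and comparison with the largest change, untested members, the 8 genes most like TFF1, and the genes next to it in the order at 12 h and 24 h; not all of these are printed. C2CD2, SLC37A1, ABCG1 and CXCR4 at 24 h, FCGBP at 24 h and PDE9A were named after their values were seen. Comparisons against 0 h share the 0 h libraries. Replicates 2 and 3 at 6 h and at 24 h were closer (chi-square per gene of 1.57 and 1.67) than the other pairs (3.44 to 12.3) but differed by more than counting noise, and were kept as separate samples. Alternatives were other scalings, filters, DESeq2 1.42.0, limma 3.58.1 (voom), fits restricted to the groups of a comparison, a replicate block, averaging of the close replicates, removal of length and GC trends, and leaving out each library. Some items are not reported here.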

Additional observations from a re-analysis of the deposited data

How the results depend on the processing

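TFF1 kept its direction under every alternative run, in each comparison given, and its calls at 6 h against 1 h and at 6 h against 3 h held under all of them. Leaving out each library in turn gave TFF1 log2 fold changes of -0.38 to -0.16 at 3 h against 1 h, -1.06 to -0.92 at 6 h against 1 h, -0.84 to -0.61 at 6 h against 3 h, 0.052 to 0.20 at 1 h, -0.26 to -0.032 at 3 h, -0.91 to -0.80 at 6 h, -2.86 to -2.70 at 12 h and -3.19 to -2.97 at 24 h against 0 h, and -0.40 to -0.18 at 24 h against 12 h. With length and GC trends removed, TFF1 was at -0.36 for 3 h against 1 h (now called), -0.34, -0.64, -2.62 and -2.73 for 3, 6, 12 and 24 h against 0 h, and -0.10 for 24 h against 12 h. In 3 places the sign of another trefoil gene turned, with no call on either side: TFF2 at 3 h against 1 h was -0.0041 without replicate 2 at 3 h (-0.0041 to 0.17 over the libraries left out), TFF3 at 6 h against 1 h was 0.17 with the trends removed, and TFF3 at 3 h against 0 h was 0.0094 without replicate 2 at 0 h (-0.30 to 0.0094). Of the 8 genes most like TFF1, 1 remained with Spearman's rho, 3 over the 6 time means, 4 with library size alone and 1 with the trends removed, and 6 to 8 without a library. The cause was not tested. Same-numbered replicates did not deviate together (r of -0.20 to 0.21 over 40 pairs of libraries, 8 of them above 0.1), so the numbers were not taken as pairs; with the replicate block TFF1 had -0.21, -0.94 and -0.73 at 3 h against 1 h, 6 h against 1 h and 6 h against 3 h, and -2.79 and -3.06 at 12 h and 24 h against 0 h, and no TFF1 call changed. Of 48 counts of called list members, 29 moved by over 1.5 times under some alternative. At 24 h against 0 h the oestrogen-response count of 7 ranged from 4 to 10 and the promoter factor count of 9 from 7 to 12, and at 12 h against 0 h the luminal factor count of 3 ranged from 0 to 4. Among the trefoil genes TFF3 had the fewest counts, 9 to 34 per library.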
